A study of Homo sapiens with 7 samples.

Results

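The transcripts described here are antisense and intronic noncoding RNAs, taken by name: every gene symbol that ends in -AS or -IT and a digit and whose normalized count had a mean of at least 20 over 4 RNA libraries. Of 23710 genes in the deposited table, 450 carried such a symbol (419 -AS and 31 -IT), and 170 of them (162 -AS and 8 -IT) passed the minimum and are called members below. The members were thus chosen by their measured level, which is given as a description and has no weight as a finding. The 280 symbols left out included 172 that stood at the lowest deposited value in all 4 libraries. Just outside the minimum were KLHL7-AS1 (mean 19.1), GNG12-AS1 (19.4) and C1QTNF9B-AS1 (19.8), and just inside were ZEB2-AS1 (20.04), AFAP1-AS1 (20.1) and FUT8-AS1 (20.5).

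The libraries came from SNU398, an established human hepatocellular carcinoma line that expresses the stem cell transcription factor SALL4. In 4 separate treatments, each at 30 µM for 8 h, the cells received PEN (the cell-penetrating peptide penetratin), PEN-MUT, PEN-WT or PEN-FFW. As background to the study, PEN-WT carries the stretch of SALL4 that contacts the NuRD chromatin complex, PEN-MUT a mutated control form and PEN-FFW an engineered form. No untreated cells were analysed here, so every group had a penetratin peptide. Each peptide had 1 library, hence there is no replicate error, no test between peptides and no p-value. The ± values and intervals below cover the counting of reads only.

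An antisense RNA is transcribed from the strand opposite to a gene, often from the same CpG-rich promoter in the other direction, while an intronic transcript lies within an intron of its host on the same strand. Many such RNAs stay in the nucleus, where the RNA exosome removes unstable ones, and a few act on chromatin or bind microRNAs. The symbol before the dash gives the sense or host gene, called the named gene here. How the strand was treated in counting is not given in the sources used here, so reads of a member and of a gene overlapping it cannot be told apart. For an intronic transcript on its host's strand, unspliced host RNA gives reads at the same place.

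As examples of start sites, the 300 bases around the annotated start are given for the 2 members that ranked highest in PEN-FFW and for 2 abundant members that ranked among the lowest. Each window holds 250 bases before the start and 50 bases from it, 5′ to 3′ on the transcript's strand, in GRCh37. Capitals mark each CpG, the letters CG, which read the same on both strands. ITPK1-AS1 (chr14:93533547-93533846, plus strand) had 3 CpGs and ANP32A-IT1 (chr15:69099391-69099690, minus strand) 6, against 23 in OIP5-AS1 (chr15:41575945-41576244, plus strand) and 30 in FGD5-AS1 (chr3:14989882-14990181, minus strand). The start of ANP32A-IT1 came from RefSeq (GRCh38.p14), whose window was found unchanged in GRCh37, and the other starts came from GENCODE 44.
ITPK1-AS1: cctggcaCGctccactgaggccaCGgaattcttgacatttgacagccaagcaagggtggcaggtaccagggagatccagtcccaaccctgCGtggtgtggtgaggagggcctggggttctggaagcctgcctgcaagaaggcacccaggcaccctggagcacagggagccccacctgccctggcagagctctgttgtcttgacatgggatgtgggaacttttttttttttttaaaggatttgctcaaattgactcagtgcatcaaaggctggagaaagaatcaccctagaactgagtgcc
ANP32A-IT1: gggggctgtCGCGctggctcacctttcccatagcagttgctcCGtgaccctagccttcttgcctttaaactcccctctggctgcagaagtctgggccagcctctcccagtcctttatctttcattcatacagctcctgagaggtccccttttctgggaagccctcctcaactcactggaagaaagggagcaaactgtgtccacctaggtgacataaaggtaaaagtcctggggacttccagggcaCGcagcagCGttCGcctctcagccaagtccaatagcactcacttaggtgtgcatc
OIP5-AS1: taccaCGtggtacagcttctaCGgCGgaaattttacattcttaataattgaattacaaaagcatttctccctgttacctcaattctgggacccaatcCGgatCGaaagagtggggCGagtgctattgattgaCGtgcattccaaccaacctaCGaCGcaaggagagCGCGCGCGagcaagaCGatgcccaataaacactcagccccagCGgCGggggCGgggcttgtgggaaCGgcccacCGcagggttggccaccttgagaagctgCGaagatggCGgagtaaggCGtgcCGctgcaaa
FGD5-AS1: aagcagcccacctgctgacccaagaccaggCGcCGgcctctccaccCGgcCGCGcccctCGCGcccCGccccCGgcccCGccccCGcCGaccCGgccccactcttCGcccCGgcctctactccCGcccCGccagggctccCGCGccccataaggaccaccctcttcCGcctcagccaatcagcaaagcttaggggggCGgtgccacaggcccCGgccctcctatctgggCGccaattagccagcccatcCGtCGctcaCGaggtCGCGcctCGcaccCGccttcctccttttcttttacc
Among all tested genes with such a window, 9.16% had fewer than 10 CpGs, as both ITPK1-AS1 and ANP32A-IT1 did. Of the members with a GENCODE start, 35 had fewer than 10 CpGs and 126 had at least 10. A count of CpGs describes the sequence and says nothing of what binds there.

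Reads in genes above the lowest deposited value ranged from 27347377 in PEN-FFW to 40717633 in PEN-WT, and the members took between 0.169% and 0.187% of the normalized counts. The label was checked with marker genes: 6 of 11 liver and epithelial markers (KRT8, KRT18, APOB, TTR, SERPINA1 and HNF4A) were at the lowest deposited value in every library. AFP (7.76 to 11 normalized counts) and APOA1 (8.31 to 18) were near that value, and ALB had 83.1 to 157. The hepatoma marker GPC3 (998 to 1281 normalized counts) and SALL4 (1168 to 1665) were present. Of 12 markers of blood, endothelium and fibroblasts, 7 were at the lowest value, while the collagen gene COL3A1 had 72895 to 79779 normalized counts. The fibroblast collagen gene COL1A1 had 127, 156, 182 and 221 (order PEN, PEN-MUT, PEN-WT, PEN-FFW), 1.01 ± 0.14 above PEN in PEN-FFW, while the fibroblast gene DCN (-0.20 ± 0.05) and the leukocyte gene PTPRC (0.11 ± 0.10) were not higher to that extent. The part of these markers in the results below was not tested. In bulk RNA, fewer cells of a type and less RNA per cell cannot be told apart. All values are normalized counts as deposited. Differences are on the scale of log2(normalized count + 10), which understates the fold of low genes, relative to the median of the 13769 genes with a mean of at least 20. As deposited, that median gene was itself at -0.25 in PEN-FFW against PEN, -0.28 against PEN-MUT and -0.29 against PEN-WT.

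Most members were scarce. The member means ran from 20.04 to 13883 normalized counts with a median of 85.3, against 929 for all tested genes and 1558 for the tested named genes, on a scale that is not divided by transcript length. Means under 100 were found for 95 members and means of at least 1000 for 6. Of the members, 14 had a mean under 20 in PEN and PEN-MUT, so that PEN-FFW or PEN-WT carried them over the minimum.

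In PEN-FFW many members stood above the median gene, and a small set of them was far higher. Relative to PEN, 16 of 170 members (9.41%) were at least 2-fold higher and 0 were 2-fold lower, where 3.03% of all tested genes were 2-fold higher and 0.0581% lower. Relative to PEN-MUT, 18 members (10.6%) were 2-fold higher and 0 lower, against 3.67% and 0.00726% of all tested genes. The median member was 0.30 above PEN and 0.33 above PEN-MUT, with 141 and 140 of 170 members above the median gene. The 2 comparisons share the PEN-FFW library.

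Low level went with these differences in all genes, not in the members alone. Among tested genes with a mean under 200, 10.7% were 2-fold higher in PEN-FFW than in PEN, and 16 of the 132 members under 200 (12.1%) were. Against PEN-MUT these shares were 12.6% of genes and 13.6% of members. The median of the tested genes under 200 was 0.30 against PEN and 0.31 against PEN-MUT, beside 0.30 and 0.33 for the members. The 38 members with a mean of at least 200 had a median of 0.06 against PEN, and 0 of them were 2-fold higher. Across the 170 members, the difference from PEN had a Spearman correlation of -0.45 with the mean level, a description over transcripts of the same 2 libraries whose mean includes PEN-FFW itself. Where the mean of PEN and PEN-MUT chose the members, 156 were left and 7 of them were 2-fold higher against PEN. The share of all genes chosen in that way is not given here. By the mean over all libraries, the share of the members under 200 was near that of all tested genes under 200.

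**Figure D1:**
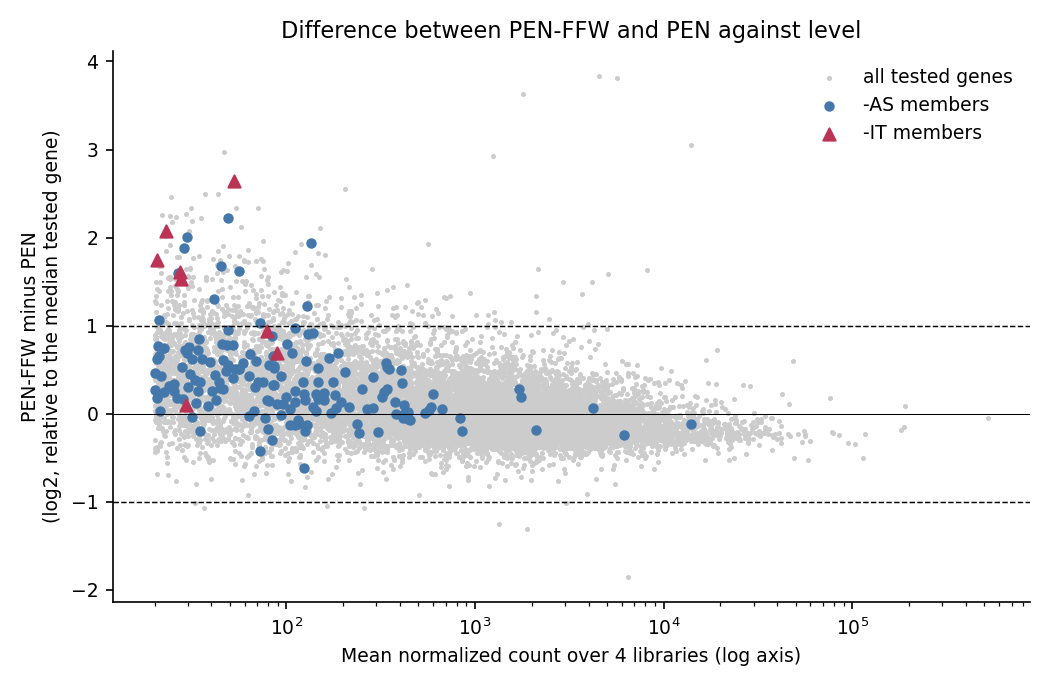
Difference of PEN-FFW from PEN (log2, relative to the median tested gene, vertical axis) against mean normalized count over the 4 libraries (log axis) for all tested genes (grey), -AS members (circles) and -IT members (triangles), with dashed lines at 2-fold. The 16 members above the upper line lie at means from 20.7 to 135, where the grey cloud also spreads upward.

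The member that ranked first in PEN-FFW was ITPK1-AS1. It runs on the plus strand from chr14:93533797-93538497 as 1 exon, inside and opposite to ITPK1, an inositol phosphate kinase gene, with no exon shared. ITPK1-AS1 had 23.5 normalized counts with PEN, 14 with PEN-MUT, 36.5 with PEN-WT and 121 with PEN-FFW. PEN-FFW was thus above all 3 other libraries, by 2.22 ± 0.22 against PEN and 2.73 ± 0.25 against PEN-MUT. The mean of ITPK1-AS1 in PEN and PEN-MUT was under 20, so it was not kept where those libraries chose the members. ITPK1 itself had 3853, 3593, 3700 and 2883 normalized counts in the same order, a difference from PEN of -0.16 ± 0.03.

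ANP32A-IT1, named for a histone-binding inhibitor of protein phosphatase 2A, had the largest difference from PEN of any member. Its start lies within an intron of ANP32A on the same strand. It had 16.8 normalized counts with PEN, 28 with PEN-MUT, 36.5 with PEN-WT and 130 with PEN-FFW, which is 2.64 ± 0.23 above PEN and 2.16 ± 0.23 above PEN-MUT. ANP32A had 9740 normalized counts with PEN and 6407 with PEN-FFW, a difference of -0.35 ± 0.02. The gap between transcript and host, 2.99 ± 0.23, was the widest of all pairs.

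UCKL1-AS1 was the most abundant of the 12 highest members. It is a 1-exon transcript (chr20:62584737-62588338, plus strand) with 4.36% of its bases over exons of UCKL1, a uridine kinase-like gene on the other strand. It had 78.9 normalized counts with PEN, 73 with PEN-MUT, 112 with PEN-WT and 277 with PEN-FFW. The differences were 1.94 ± 0.15 from PEN and 2.07 ± 0.17 from PEN-MUT. UCKL1 stood at 0.66 ± 0.06 from PEN, higher as well but by less than its antisense transcript.

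Of the other antisense transcripts among the 12 highest, a pair lay within their named gene on the opposite strand with no exon in common. COL18A1-AS1 (chr21:46839631-46844985, minus strand), inside the gene of collagen XVIII, had 13.4, 10, 25.6 and 69.2 normalized counts (order PEN, PEN-MUT, PEN-WT, PEN-FFW), and differed from PEN by 2.01 ± 0.25. CSNK1G2-AS1 (chr19:1952530-1954585, minus strand), inside a casein kinase 1 gene, had 15.1, 12, 20.2 and 67.4 and differed by 1.88 ± 0.25. The low counts of both in PEN and PEN-MUT are below the minimum of 20, so the PEN-FFW library brought them in. CSNK1G2 had a difference of 0.00 ± 0.04 and COL18A1 of 0.61 ± 0.05.

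The remaining 3 antisense transcripts of the 12 overlapped a small part of their named gene. ADORA2A-AS1, at the gene of an adenosine receptor, had 26.03, 20, 48.1 and 86.8 normalized counts (order PEN, PEN-MUT, PEN-WT, PEN-FFW), with 1.68 ± 0.23 against PEN. CCDC74B-AS1 had 36.9, 32, 45.8 and 111 in the same order, with 1.62 ± 0.21. AATK-AS1, which GENCODE now lists as the gene PVALEF, had 16.8, 15, 16.3 and 58.2, with 1.60 ± 0.25. AATK-AS1 had a mean under 20 without PEN-FFW, so the minimum let it in only through a high value there. In the other two the PEN-FFW value was also the highest of the 4. The named genes were above the median gene, by 0.71 ± 0.16 for ADORA2A, 0.45 ± 0.16 for CCDC74B and 0.62 ± 0.10 for AATK, the apoptosis-associated tyrosine kinase.

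The 8 intronic members were scarce, with a median level of 28.4 normalized counts, and 4 of them had a mean of at least 20 in PEN and PEN-MUT. Of those 4, 1 was 2-fold higher in PEN-FFW than in PEN and the median was 0.81, against 6 of 152 and 0.26 for the -AS members held to the same minimum. The other four intronic members, ASAP1-IT1, SND1-IT1, MAPT-IT1 and AGPAT4-IT1, had a mean under 20 without PEN-FFW and passed only through it, so their high PEN-FFW value was fixed by the minimum and is given as a description. With them, 5 of 8 intronic members were 2-fold higher. The share of all genes with a mean of at least 20 in PEN and PEN-MUT is not given here. A difference between the 2 kinds was not tested.

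ASAP1-IT1, named for an Arf GTPase-activating protein, had 10.1 normalized counts with PEN, 8 with PEN-MUT, 13.2 with PEN-WT and 60.9 with PEN-FFW (2.07 ± 0.26 against PEN). SND1-IT1, whose host encodes a nuclease of RNA silencing complexes, had 12.6, 11.6 and 53.5 in PEN, PEN-WT and PEN-FFW and was at the lowest deposited value of 5 in PEN-MUT. It differed from PEN by 1.74 ± 0.26 and from PEN-MUT by at least 2.36. GENCODE places SND1-IT1 (chr7:127637650-127640130, plus strand) on the strand of SND1 with 19.3% of its bases over SND1 exons, so these reads cannot be told apart from those of SND1.

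MAPT-IT1 (chr17:43973149-43976164, plus strand), in an intron of the tau gene, had 13.4, 19, 26.4 and 49.9 normalized counts (order PEN, PEN-MUT, PEN-WT, PEN-FFW) (1.61 ± 0.26 against PEN). AGPAT4-IT1, named for a lysophosphatidic acid acyltransferase, had 15.96, 20, 21.7 and 52.6 (1.52 ± 0.26). Both hosts were above the median gene, MAPT by 0.36 ± 0.07 and AGPAT4 by 0.82 ± 0.09.

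The other 3 intronic members differed less. N4BP2L2-IT2 had 65.5 normalized counts with PEN, 67 with PEN-MUT, 70.6 with PEN-WT and 112 with PEN-FFW, 0.94 ± 0.19 above PEN, while N4BP2L2 stood at 0.03 ± 0.04. CRHR1-IT1 had 74.7, 77, 103 and 104 (0.68 ± 0.18), with PEN-WT and PEN-FFW close together. Its named gene CRHR1, the corticotropin-releasing hormone receptor, was at or near the lowest deposited value (5 to 12.4), and GENCODE lists the transcript as LINC02210, outside CRHR1. BRWD1-IT2 had 36.9, 25, 22.5 and 32.3 and showed no PEN-FFW excess over PEN (0.10 ± 0.25).

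**Figure D2:**
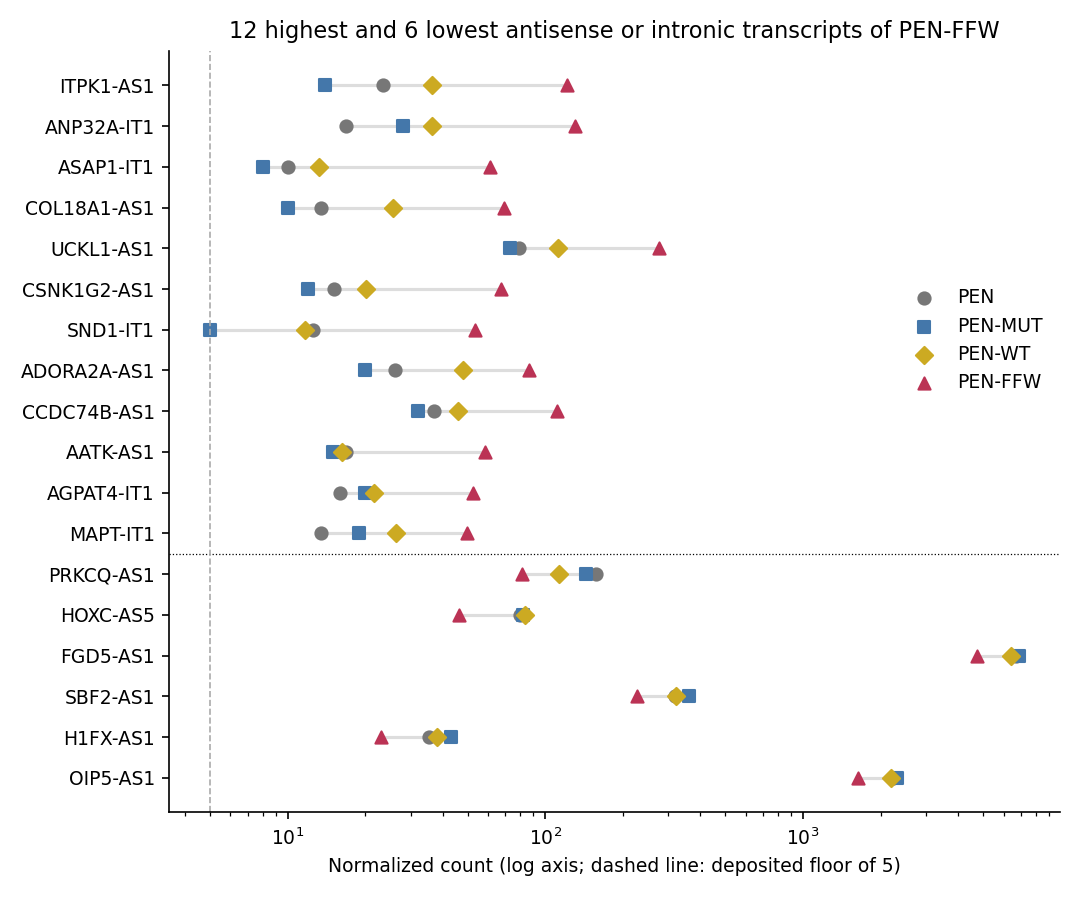
Normalized count (log axis) in each of the 4 libraries for the 12 members highest and the 6 lowest in PEN-FFW, ranked by the smaller in size of the differences from PEN and PEN-MUT, 1 symbol per peptide and a dashed line at the lowest deposited value. In the 12 upper transcripts the PEN-FFW triangle stands to the right of all others, and in the 6 lower ones to the left.

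Beyond the naming rule, 4 more members were 2-fold higher in PEN-FFW than in PEN, and they are named here after their values were seen. SLFNL1-AS1 had 108 normalized counts with PEN, 70 with PEN-MUT, 115 with PEN-WT and 222 with PEN-FFW (1.22 ± 0.15). RUSC1-AS1 (1.30 ± 0.24), MKNK1-AS1 (1.07 ± 0.27, with a mean under 20 without PEN-FFW) and JMJD1C-AS1 (1.02 ± 0.20) were the others. All 3 were under 1 against PEN-MUT, at 0.97 ± 0.24, 0.84 ± 0.28 and 0.63 ± 0.20.

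The 6 lowest members of PEN-FFW differed by much less, and 2 of them, FGD5-AS1 and OIP5-AS1, were abundant. PRKCQ-AS1 (chr10:6622381-6658883, plus strand), divergent from the gene of protein kinase C theta, had 157 normalized counts with PEN, 144 with PEN-MUT, 113 with PEN-WT and 81.2 with PEN-FFW. It was -0.62 ± 0.17 against PEN and -0.48 ± 0.18 against PEN-MUT, and PEN-WT and PEN-FFW were both below the 2 controls. PRKCQ had 36.1, 49, 26.4 and 27.7, too few reads to place it (-0.04 ± 0.26).

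HOXC-AS5, of the HOXC homeobox cluster, had 79.8, 82, 83.1 and 46.2 normalized counts (order PEN, PEN-MUT, PEN-WT, PEN-FFW), with 3 libraries level and PEN-FFW below them (-0.42 ± 0.21 from PEN). FGD5-AS1 (chr3:14961854-14989931, minus strand), named for a CDC42 activator of endothelium, had 6703, 6900, 6388 and 4750, a difference of -0.24 ± 0.03. OIP5-AS1 (chr15:41576156-41614590, plus strand), also known as Cyrano and known for triggering decay of the microRNA miR-7, had 2230, 2309, 2195 and 1641 (-0.19 ± 0.04). SBF2-AS1 (-0.21 ± 0.11) and H1FX-AS1 (-0.20 ± 0.27) completed the set, the latter within its counting error. As deposited, without the correction for the median gene, FGD5-AS1 stood at -0.50 and OIP5-AS1 at -0.44.

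The abundant members differed little. The 8 of highest mean lay between -0.24 and 0.28 from PEN in PEN-FFW. C17orf76-AS1, listed by GENCODE as the snoRNA host SNHG29, was first with 14472, 15316, 14563 and 11182 normalized counts (order PEN, PEN-MUT, PEN-WT, PEN-FFW) (-0.12 ± 0.02). MAGI2-AS3 (4421 in PEN and 3887 in PEN-FFW, 0.07 ± 0.03), SLC7A11-AS1 (1689 and 1614, 0.19 ± 0.05) and BAIAP2-AS1 (1574 and 1605, 0.28 ± 0.05) were above the median gene. MAPKAPK5-AS1 (-0.19 ± 0.07) and NOP14-AS1 (-0.05 ± 0.07) were at or below it. As deposited, MAGI2-AS3 (-0.19) and SLC7A11-AS1 (-0.07) were on the other side of 0, and relative to genes of the same level C17orf76-AS1 was (0.06).

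Each member was then set against its named gene. The named gene was in the table for 167 members and tested for 158. In PEN-FFW against PEN the member stood above the named gene in 115 of 158 pairs, with a median gap of 0.28. The named genes had a median of 0.03 and 7 of 158 were 2-fold higher, where 3.03% of all tested genes were. Both ranges were wide, and the Spearman correlation between members and named genes was 0.12 over 158 pairs, a description of values from the same 2 libraries. Relative to genes of the same level the median gap was 0.01.

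The 16 members 2-fold higher in PEN-FFW than in PEN had named genes with a median of 0.27, between -0.35 (ANP32A) and 1.63 (SLFNL1). Of those 16 named genes, 1 (SLFNL1) was itself 2-fold higher, where 3.03% of all tested genes were. The gap exceeded 1 in 17 pairs, led by ANP32A-IT1, ITPK1-AS1 (2.38 ± 0.23), ASAP1-IT1 (1.88 ± 0.26), CSNK1G2-AS1 (1.87 ± 0.25), SND1-IT1 (1.79 ± 0.26) and COL18A1-AS1 (1.40 ± 0.26). All of these but ANP32A-IT1 had a mean under 20 in PEN and PEN-MUT. Their gaps were thus shaped in part by the minimum and are given as a description. The count of wide gaps without such members is not given here. The median gap was 0.28 in 38 pairs without exon overlap and 0.27 in 111 pairs with it.

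Pairs of the opposite kind, in which the named gene led, were fewer, in a set whose minimum let in members through PEN-FFW. SRRM2, which encodes a scaffold of nuclear speckles, had 5600 normalized counts with PEN, 4822 with PEN-MUT, 7508 with PEN-WT and 14525 with PEN-FFW, a difference from PEN of 1.63 ± 0.02. SRRM2-AS1, which starts 26 bases from it in the opposite direction, had 40.3, 26, 28.7 and 40.6 (0.26 ± 0.24), so the gap was -1.36 ± 0.24. PRRT3 stood at 1.13 ± 0.13 and PRRT3-AS1 at -0.18 ± 0.19. BSN, encoding the presynaptic protein bassoon, stood at 1.10 ± 0.08 and BSN-AS2 at 0.12 ± 0.25. ZBED3-AS1 (0.11 ± 0.19 against 1.05 ± 0.21 for ZBED3) and ASB16-AS1 (0.35 ± 0.14 against 1.22 ± 0.20 for ASB16) followed. In these 5 pairs the named gene alone passed 2-fold.

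**Figure D3:**
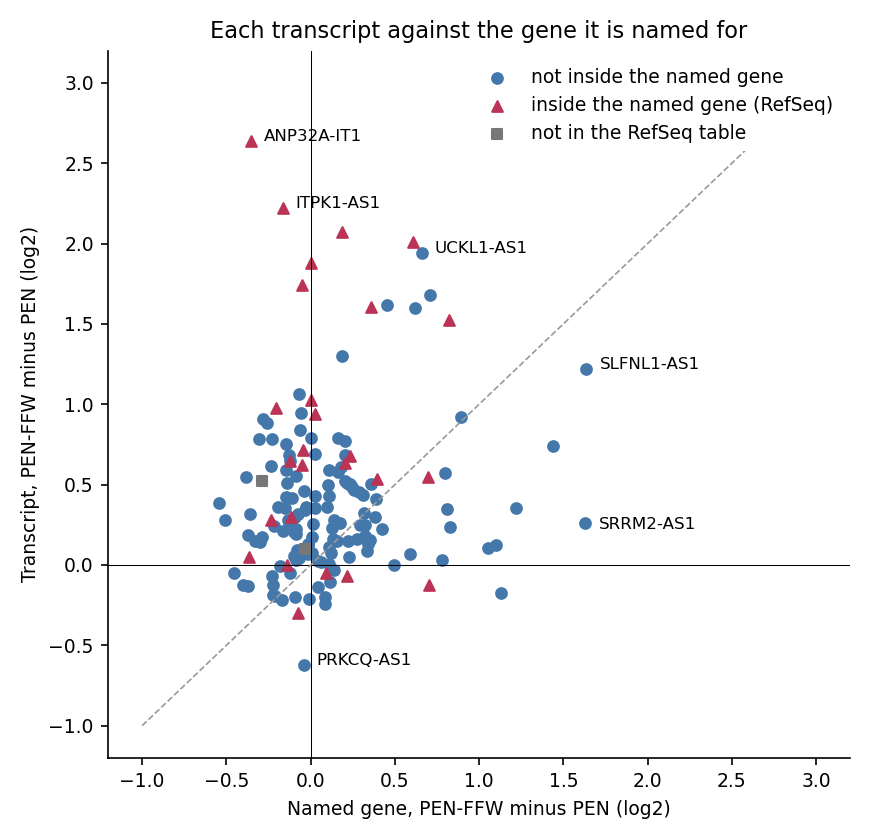
Difference of PEN-FFW from PEN (log2, relative to the median tested gene) for each member (vertical axis) against that of its named gene (horizontal axis) in 158 pairs, with triangles for members inside the named gene, circles for the others, squares for 2 members that the RefSeq table lacks and a dashed line of equal difference. The triangles reach the top of the plot while their hosts lie between -0.36 and 0.82, and SLFNL1-AS1 is the only member above 1 whose named gene is above 1 too. Of the 9 triangles at 1 or above, 7 had a mean under 20 in PEN and PEN-MUT.

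Position relative to the named gene was compared with RefSeq spans. For 27 members the whole transcript lay inside the named gene, and for 141 it did not. Inside members had a median difference of 0.65 from PEN in PEN-FFW, and 9 of 27 (33.3%) were 2-fold higher, where the others had 0.27 and 7 of 141 (4.96%). Of the 9, however, 7 had a mean under 20 in PEN and PEN-MUT. Among members at or above 20 in those libraries, 2 of 19 inside (10.5%) and 5 of 135 outside (3.70%) were 2-fold higher, with medians of 0.53 and 0.26. The share of all genes held to that minimum is not given here. The 27 inside members had a median level of 68.4 normalized counts and the 141 others 89.6. Among all tested genes with a mean under 200, 10.7% were 2-fold higher. Of the 26 tested hosts of inside members 0 were 2-fold higher, where 3.03% of all tested genes were, and the hosts of the 9 had a median of 0.00. The medians of PEN-WT against PEN were 0.18 inside and 0.05 outside, and those of PEN-MUT against PEN were 0.01 and 0.02. These groups were compared after their values had been seen, and the difference between them was not tested.

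**Figure D4:**
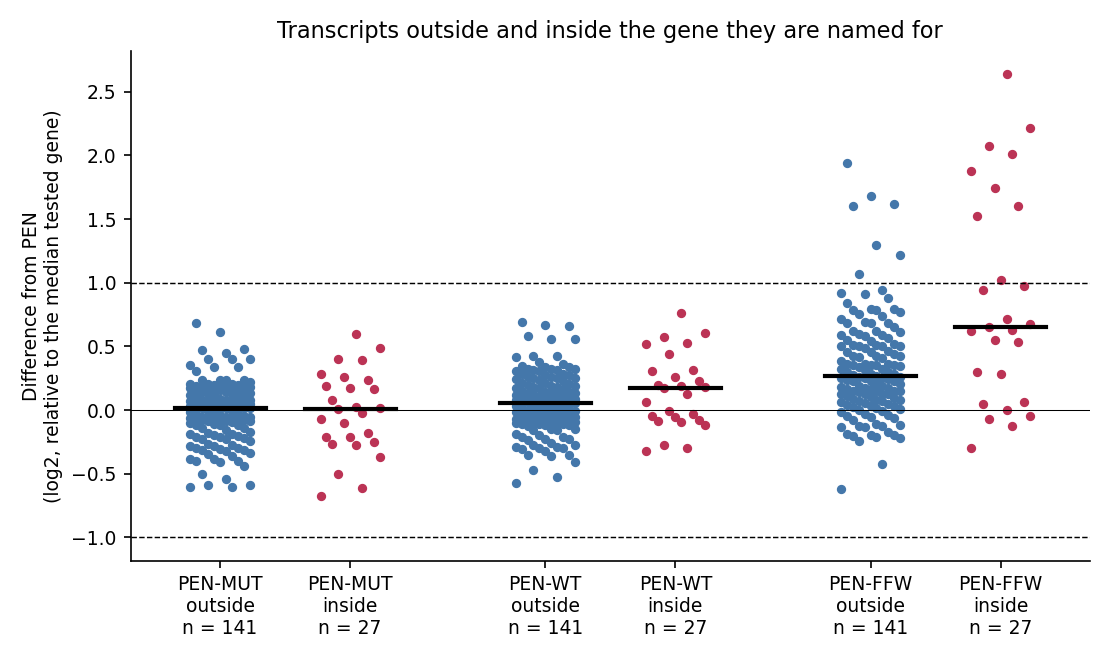
Difference from PEN (log2, relative to the median tested gene) of every member outside (141) and inside (27) its named gene, for PEN-MUT, PEN-WT, PEN-FFW, with black bars at the medians and dashed lines at 2-fold. No point passes a dashed line in PEN-MUT or PEN-WT, and in PEN-FFW the inside members have the higher median (0.65 against 0.27). Of the inside members 19 had a mean of at least 20 in PEN and PEN-MUT, and of the outside members 135. Their medians in PEN-FFW were 0.53 and 0.26. The other members passed the minimum through PEN-FFW or PEN-WT.

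By GENCODE position, 78 members were divergent (start sites within 1000 bases on opposite strands), 37 convergent, 12 internal on the opposite strand, 3 intronic on the same strand and 1 on the same strand with shared exons. Another 28 had other arrangements and 11 could not be placed. Among members with a mean of at least 20 in PEN and PEN-MUT, 1 of 75 divergent, 2 of 35 convergent and 0 of 9 internal members were 2-fold higher in PEN-FFW than in PEN, with medians of 0.26, 0.35 and 0.30. The share of all genes held to that minimum is not given here, and 3.03% of all tested genes were 2-fold higher. A difference between these positions was not tested. All 3 internal members that were 2-fold higher (of 12) fell under that minimum. By the same minimum, 2 of 17 members of 1 exon and 4 of 132 with more exons were 2-fold higher, with medians of 0.43 and 0.26. Of all tested genes 6.77% with 1 exon and 2.63% with more were 2-fold higher.

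The members were also split by the CpG content of the start window. The 35 members with fewer than 10 CpGs had a median of 0.62 and 7 were 2-fold higher, and the 126 with at least 10 had 0.26 and 6. With a mean of at least 20 in PEN and PEN-MUT these counts were 3 of 30 and 3 of 120, with medians of 0.43 and 0.25. The share of all genes held to that minimum is not given here. The median level of the members was close in both groups, 84.3 and 87.5 normalized counts. Among all tested genes 10.8% with fewer than 10 CpGs were 2-fold higher and 1.94% of the rest, and the former had a median mean of 104 normalized counts against 1105. The part of CpG content in the result was not tested. The 13 members higher by 2-fold and with a known sequence had a median GC content of 58.2% over their exons, against 49.8% for 147 other members and 48.6% for all tested genes. Of all 16 members higher by 2-fold, 9 had a mean under 20 in PEN and PEN-MUT. The GC content without them is not given here, so the contrast describes a set shaped in part by the minimum.

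With PEN-WT, the peptide with the native SALL4 stretch, the members stood near the controls. Against PEN 0 of 170 members were 2-fold higher or lower (0.0872% and 0.0145% of all tested genes), and against PEN-MUT also 0 (0.0581% and 0.00726%). The median member stood at 0.06 from each. The highest by the smaller of the 2 differences were ADORA2A-AS1 (0.66, 95% counting interval 0.18 to 1.13, against PEN and 0.95, 0.43 to 1.47, against PEN-MUT), COL18A1-AS1 (0.57 ± 0.27), ITPK1-AS1 (0.44 ± 0.25), UCKL1-AS1 (0.42 ± 0.17) and TSC22D1-AS1 (0.56 ± 0.22). The first 4 of these were also among the 12 highest of PEN-FFW, in comparisons that share the PEN library.

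TSC22D1-AS1, divergent from the gene of a transcription factor induced by TGF-beta, had 35.3 normalized counts with PEN, 42 with PEN-MUT, 58.2 with PEN-WT and 48.0 with PEN-FFW. PRKCQ-AS1 was the lowest member of PEN-WT (-0.47, interval -0.76 to -0.18, against PEN). DLGAP1-AS1 (-0.32 ± 0.17), FOXN3-AS1 (-0.28 ± 0.16), ACVR2B-AS1 (-0.30 ± 0.26) and NPPA-AS1 (-0.23 ± 0.28) came next, all 4 with a 95% counting interval that includes 0. The named genes are a postsynaptic scaffold, a forkhead repressor, an activin receptor and atrial natriuretic peptide.

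The 2 SALL4-derived peptides were compared directly, at the same dose and time. PEN-FFW exceeded PEN-WT by 2-fold in 14 of 170 members (8.24%) and 0 were 2-fold lower, where 1.61% and 0.00726% of all tested genes were. Among genes under 200 the shares were 10.6% of members and 6.27% of genes. Where the mean of PEN and PEN-MUT chose the members the count was 5 of 156, and the share of all genes chosen in that way is not given here. ASAP1-IT1 (1.90 ± 0.25), ANP32A-IT1 (1.88 ± 0.20), SND1-IT1 (1.84 ± 0.26) and ITPK1-AS1 (1.78 ± 0.20) differed most. The lowest were HOXC-AS5 (-0.44 ± 0.21), ARHGAP5-AS1 (-0.41 ± 0.17), DNAJC27-AS1 (-0.35 ± 0.27) and IDH1-AS1 (-0.32 ± 0.27). For TSC22D1-AS1 (0.05, interval -0.37 to 0.48) and PRKCQ-AS1 (-0.15, -0.49 to 0.20) no difference between the 2 peptides was detectable at this depth.

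The 2 control peptides differed from each other by less than 2-fold in all 170 members, and of all tested genes 0% were 2-fold higher in PEN-MUT and 0.0145% lower. The median member stood at 0.01, with a range from -0.68 to 0.69, which shows how far single low members lie apart between libraries of the control peptides. CSTF3-AS1, divergent from a gene of the cleavage stimulation factor, had 37.8 normalized counts with PEN and 68 with PEN-MUT (0.69 ± 0.23), RBM26-AS1 15.1 and 29 (0.62 ± 0.29), and WWTR1-AS1, at the gene of the Hippo coactivator TAZ, 22.7 and 40 (0.59 ± 0.27). ANP32A-IT1 (0.48 ± 0.29) was next. On the lower side were ZSWIM8-AS1 with 29.4 and 15 (-0.68 ± 0.29), SND1-IT1, NDUFB2-AS1 with 26.03 and 14 (-0.61 ± 0.29), and FOXD2-AS1 with 154 and 100 (-0.60 ± 0.16). ZSWIM8-AS1 and FOXD2-AS1 were 2-fold higher in PEN-FFW than in PEN-MUT (1.22 ± 0.29 and 1.13 ± 0.16) but not than in PEN (0.53 ± 0.25 and 0.52 ± 0.14).

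Of the 13768 other tested genes, those whose 3 differences from PEN over the 4 libraries lay nearest to those of ITPK1-AS1 were IRF7, an interferon response factor (distance 0.18), PRR26 (0.23) and LOC613037 (0.26). IRF7 had 86.5 normalized counts with PEN, 64 with PEN-MUT, 116 with PEN-WT and 338 with PEN-FFW.

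Genes that process or degrade noncoding RNA were described from lists. None of the 70 listed genes was 2-fold apart between PEN-FFW and PEN, where 3.03% of all tested genes were 2-fold higher and 0.0581% lower. The nuclear exosome and its cofactors had a median of -0.15 (16 of 21 below the median gene), with the core subunits EXOSC4 (-0.44 ± 0.05) and EXOSC5 (-0.44 ± 0.08) lowest and the nuclear poly(A) binding protein PABPN1 (0.52 ± 0.08) and its partner ZFC3H1 (0.48 ± 0.04) highest. The list for Integrator, which ends many short noncoding transcripts, had a median of -0.12 (12 of 15 below), with ASUN at -0.32 ± 0.04. That list also held SSB (-0.29 ± 0.02), the gene of the RNA-binding protein La, which is no Integrator subunit. Cleavage and termination factors had -0.13 (15 of 20 below), with the exonuclease XRN2 at -0.29 ± 0.02 and the scaffold SYMPK at 0.34 ± 0.03. Cytoplasmic decay factors had 0.06 (8 of 14 above), with the nonsense-mediated decay genes SMG6 at 0.40 ± 0.06 and SMG1 at 0.39 ± 0.02. In PEN-WT against PEN the medians of the 4 lists were -0.13, -0.01, -0.05 and 0.03. Whether these levels bear on the members was not tested.

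KCNQ1OT1, the antisense RNA of the imprinted KCNQ1 locus, bears another kind of name. It had 1538 normalized counts with PEN, 1284 with PEN-MUT, 1766 with PEN-WT and 4047 with PEN-FFW (1.64 ± 0.04). Of 8 tested symbols listed as overlapping transcripts, it alone was 2-fold higher than in PEN, where 3.03% of all tested genes were. The list also caught the protein-coding genes POT1 and FLOT1 by their symbols. ST7-OT4 stood at 0.92 ± 0.24 from PEN and at 1.34 ± 0.27 from PEN-MUT.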

How the data were processed

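RNA sequencing of SNU398 cells gave 4 libraries, 1 per peptide. The 3 chromatin immunoprecipitation samples were not analysed here. Per the submitters' processing notes, STAR 2.4.0i aligned the paired reads to hg19, and featureCounts 1.5.0-p1 was the counter named. Not given in the sources used here are the annotation, the strand setting and how the values were normalized. The deposited log2 values, raised to the power of 2, were within 0.1 read of whole reads multiplied by a factor per library (PEN 0.840, PEN-MUT 1, PEN-WT 0.776, PEN-FFW 0.923), with products under 5 set to 5. The authors' log2 values were therefore treated as log2 of normalized counts.

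A mean of 20 normalized counts was the minimum for a tested gene (13769 genes, 58.1%). Differences were taken of log2(normalized count + 10) and centred on the median tested gene, and the counting standard error followed from the recovered reads. These errors and the 95% intervals cover counting only. The calculation was tested on simulated data. With 1 library per peptide no test, p-value or replicate check was possible.

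The named members were the 12 highest and 6 lowest of PEN-FFW by the smaller in size of the differences from PEN and PEN-MUT, the 5 highest and lowest of PEN-WT by the same rule, the 4 highest and lowest of PEN-MUT against PEN and of PEN-FFW against PEN-WT, the 8 of highest mean, all -IT members and the 6 widest gaps each way, of which 1 pair is not reported here. At most 4 genes per list were named. The members and lists were chosen with earlier results of these data known.

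Positions came from GENCODE 44 lifted to GRCh37 (134 members matched by symbol, 27 by an older symbol, 9 not) and from RefSeq GRCh38.p14 (168 matched). In GENCODE, gene models may differ from those counted. Alternatives in scaling, pseudocount, minimum, fold, GC content, level, choice of members and pairing were computed with Python 3.11.15, numpy 2.4.6, pandas 2.3.3 and scipy 1.17.1, and figures drawn with matplotlib 3.10.9.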

Additional observations from a re-analysis of the deposited data

How the results depend on the processing

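No replicate could be left out, since each peptide had 1 library. No paired analysis was possible because each group had 1 library and the groups shared no more than 1 replicate number. No called value changed sign in an alternative, and medians that changed sign are among those below. Counts below are members 2-fold higher in PEN-FFW against PEN, PEN-MUT and PEN-WT, in that order. The share of all tested genes under each setting, fold or pseudocount is not given here. The counts therefore show how the calls depend on the setting and are no result about the members. With a minimum mean of 50 they were 5, 7 and 4, and with members chosen by the mean of PEN and PEN-MUT 7, 10 and 5. In 2 alternatives chosen after seeing the data they were 8, 11 and 6 (mean without PEN-FFW) and 7, 9 and 6 (members outside the named gene). Relative to genes of the same level the counts against PEN-MUT and PEN-WT were 11 and 9, and as deposited that against PEN-WT was 9.

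At 1.5-fold the counts were 47, 52 and 41. At that fold PEN-WT had 5 higher against PEN and 6 against PEN-MUT, PEN-MUT had 3 higher and 5 lower than PEN, and 1 member was lower in PEN-FFW than in PEN. With a pseudocount of 1, PEN-WT had 1 member 2-fold higher against PEN and 4 against PEN-MUT, and 1 member was lower in PEN-MUT than in PEN. With a pseudocount of 5, PEN-WT had 3 higher against PEN-MUT.

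The median member of PEN-FFW was at 0.045, 0.051 and -0.024 against PEN, PEN-MUT and PEN-WT as deposited, and at 0.050, 0.080 and 0.075 relative to genes of the same level. With a minimum of 50 it was at 0.22 against PEN and 0.19 against PEN-MUT. The median of PEN-WT was 0.10 against PEN as deposited and -0.011 against PEN-MUT relative to the same level. The median gap between member and named gene, relative to the same level, was 0.012, -0.043 and 0.043 in PEN-FFW against PEN, PEN-MUT and PEN-WT, and -0.021 in PEN-WT against PEN. It was 0.14 in PEN-FFW against PEN-MUT with a minimum of 50, and -0.10 in PEN-WT against PEN-MUT over pairs without exon overlap. The cause of these shifts was not tested, except that a higher minimum and another choice of members leave fewer members.

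The 12 highest members, chosen by these same differences, stayed at least 2-fold above PEN in every alternative that kept them. Values ran from 2.28 to 3.14 for ANP32A-IT1, 1.86 to 2.57 for ITPK1-AS1 and 1.69 to 2.06 for UCKL1-AS1. UCKL1-AS1 had a value in 11 settings, but ASAP1-IT1 and AGPAT4-IT1 in 6. With a minimum mean of 50, only ANP32A-IT1, CCDC74B-AS1 and UCKL1-AS1 of the 12 were kept. These ranges are thus a description and no support for the choice. Depth limits most members, whose median counting error was 0.19 in PEN-FFW against PEN.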

Other observations

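Below the minimum level, 108 symbols of the -AS or -IT pattern were above the lowest deposited value in at least 1 library, and 64 of them (59.3%) were highest in PEN-FFW as deposited, where 49.4% of all 2391 genes under the minimum and above that value were. Of the 170 members 64 (37.6%) were, against 12.9% of all tested genes and 35.9% of tested genes with a mean under 200.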
